A study of Mus musculus with 27 samples.

Results

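The A and B compartments of the 19 autosomes were called in C2C12, an established mouse myoblast line, from contacts between different chromosomes in bins of 1 Mb. Of 2482 autosomal bins, 72 were dropped because under 50% of their 40 kb bins had contacts, and 57 of these lay in the first 3 Mb of a chromosome. Each contact between chromosomes (in trans) was divided by the mean of its chromosome pair, and the first eigenvector of the correlations between bins gave every remaining bin a value, scaled to a mean square of 1. The first eigenvector held 3.17% of the trace (the sum of all eigenvalues), the second 1.89% and the third 1.55%. The sign of the first was set so that chr11:95000001-121000000 had a positive mean (20 of its 26 bins were positive). The 957 positive bins form A (39.7% of 2410) and the 1453 negative bins form B (60.3%). The members were thus chosen by their trans contacts, so trans values and the eigenvector are given as a description and support nothing.

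The study asked whether deletion of the lncRNA locus *Firre* alters chromosome folding in mouse embryonic fibroblasts (MEFs), with C2C12 as a further cell line. Hi-C, which counts ligations between DNA segments that lie close together in the nucleus, was performed on wild-type C2C12 cells from a commercial collection, grown in the medium used for MEFs, in 2 replicates that the authors pooled into 1 contact matrix. RNA-seq was available for MEFs but not for C2C12. It comprised 12 libraries, 3 each of female WT, female *Firre* KO, male WT and male *Firre* KO MEFs, prepared from mid-gestation embryos, where the KO is a germline deletion of the locus. The corrected matrix holds no raw counts, and the read counts that the paper lists per replicate were not used, so depth was not assessed. With 1 pooled matrix there was no replicate spread for any contact value. Differences are therefore given with their spread over chromosomes, which are parts of the same matrix and not replicates, and no p-value is given. No RNA of C2C12 was used here, so the muscle identity of the line was not checked.

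Chromosomes of mammalian nuclei are partitioned on the megabase scale into stretches that meet preferentially with others of their own kind. The A compartment is known for gene-rich, early-replicating and mostly open chromatin in the nuclear interior, and the B compartment for gene-poor, late-replicating chromatin that often lies at the nuclear lamina. Both compartments appear in a contact map as a plaid pattern, within chromosomes and between them.

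Sequences of extreme bins are shown first, since the bins differ in CG and HindIII content (coordinates in mm9). The bin with the highest eigenvector value was chr15:79000001-80000000, which holds the start of *Cbx7*, a Polycomb chromobox gene. The next was chr17:26000001-27000000, which holds *Ergic1*, a gene of the membrane traffic between endoplasmic reticulum and Golgi. The 250 bases before the annotated start of these longest genes of their bins are given 5′ to 3′ on the gene's strand, with each CG in capitals. They lie at chr15:79801550-79801799 (minus strand) and chr17:26698184-26698433 (plus).
Cbx7: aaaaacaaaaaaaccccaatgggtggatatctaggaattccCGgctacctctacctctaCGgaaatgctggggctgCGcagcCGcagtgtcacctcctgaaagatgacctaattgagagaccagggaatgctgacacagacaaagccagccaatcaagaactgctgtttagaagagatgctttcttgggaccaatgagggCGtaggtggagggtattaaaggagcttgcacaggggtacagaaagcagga
Ergic1: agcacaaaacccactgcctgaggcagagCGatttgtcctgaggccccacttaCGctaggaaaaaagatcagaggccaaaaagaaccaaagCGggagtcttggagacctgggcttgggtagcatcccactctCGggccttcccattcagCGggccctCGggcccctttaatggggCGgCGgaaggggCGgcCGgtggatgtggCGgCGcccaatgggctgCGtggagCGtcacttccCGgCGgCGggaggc
The *Ergic1* promoter held 17 CG in 63.6% GC and the *Cbx7* promoter 5 in 49.6%, so promoters of bins with nearly the same eigenvector value differed in CG content. Over all 21398 autosomal protein-coding genes in called bins, 92.6% of such promoters held at least 1 CG.

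HindIII, which cut the chromatin for ligation, recognises AAGCTT, and each fragment that Hi-C can ligate ends at such a site. The site nearest the centre of the highest A bin lies at chr15:79499129-79499278 and that of the lowest B bin, chr8:31000001-32000000, at chr8:31501023-31501172 (both 150 bases, plus strand, in no protein-coding gene). The capitals mark the site, whose sequence reads the same on both strands.
Highest A: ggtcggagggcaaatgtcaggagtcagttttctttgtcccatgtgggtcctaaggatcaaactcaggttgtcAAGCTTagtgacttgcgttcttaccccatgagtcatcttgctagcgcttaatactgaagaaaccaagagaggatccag
Lowest B: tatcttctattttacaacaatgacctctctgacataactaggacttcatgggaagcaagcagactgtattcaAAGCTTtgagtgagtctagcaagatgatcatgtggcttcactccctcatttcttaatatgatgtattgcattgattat
Apart from the site, the windows differ in base composition, with 47.3% GC in the A window and 36.7% in the B window. Of all adjoining 150-base tiles, 4.25% in A and 4.69% in B bins held the site.

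The eigenvector was skewed, with a long A tail and a compact B side. It ran from 3.42 to -1.46, and its median was 0.876 in A and -0.605 in B bins. The 3 next highest A bins were chr12:86000001-87000000 (3.24), which holds *Ltbp2*, a gene for a latent TGF-beta binding protein, chr2:30000001-31000000 (3.24), with the nucleoporin gene *Nup188*, and chr15:76000001-77000000 (3.24), with *Plec*, the gene for the cytoskeletal linker plectin, among 47 genes. The lowest B bin, on chromosome 8, held no protein-coding gene. Of the other 4 lowest, 3 held 1 each, namely chr5:6000001-7000000 (*Zfp804b*), chr15:18000001-19000000 (*Cdh10*, a classical cadherin gene) and chr3:11000001-12000000 (*Gm8910*). The exception was chr5:88000001-89000000 (-1.36), which held 24 genes, among them *Rufy3* and *Smr2*. Members next to the threshold were chr1:122000001-123000000 (8.8e-04) in A, with the macrophage receptor gene *Marco*, and chr7:90000001-91000000 (-0.0010) in B, with the cytokine gene *Il16*.

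A small number of trans values stood far above the rest and touched the calls near 0. Of the bin pairs in trans, 46.6% had no signal, while 2705 exceeded 20 times the mean of their chromosome pair, up to 769 times. At least 1 such value was present in 458 A and 1108 B bins. The bin chr17:31000001-32000000, with the cholesterol transporter gene *Abcg1*, had an eigenvector value of 0.0022 and a strongest trans value of 518 times the pair mean. When trans values were capped at 7.92 times the mean, that bin rose to 1.14, 94.9% of bins kept their call and the share in A rose to 43.8%. The highest A bin was the same, whereas the lowest B bin moved from last to rank 2393 of 2410. What the strong values are was not tested.

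**Figure D1:**
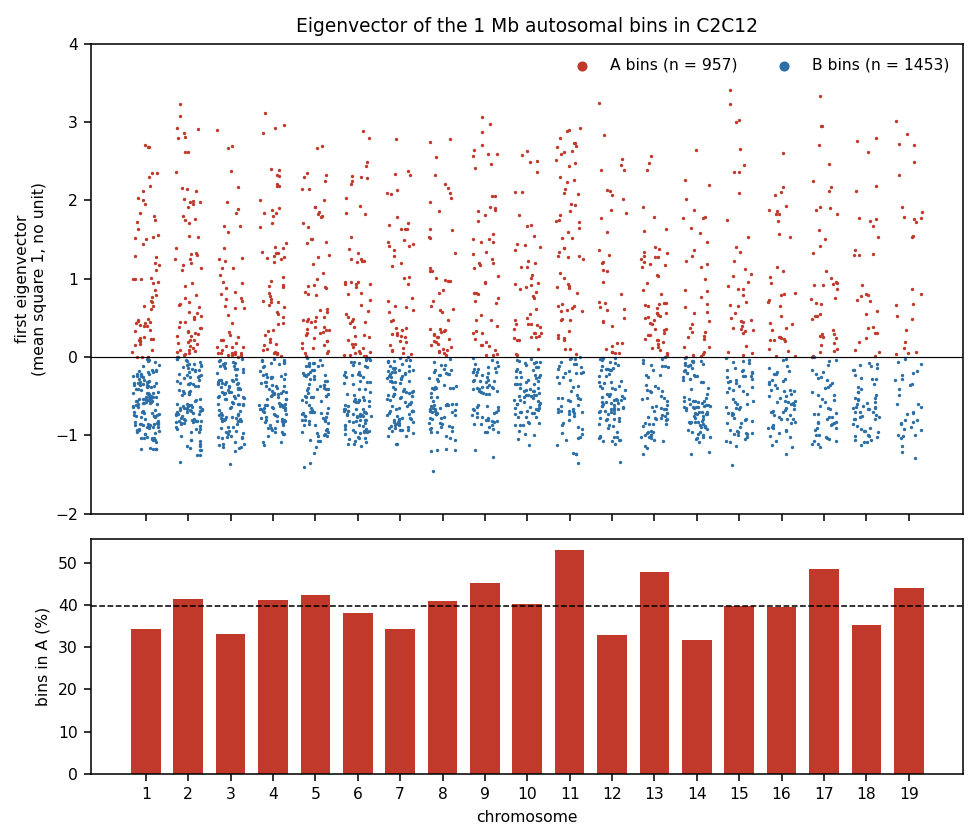
The upper panel plots the eigenvector value (no unit) of each 1 Mb bin by chromosome, with A bins in red and B bins in blue and with sideways scatter for legibility. The lower panel gives the percentage of bins in A, with a dashed line at 39.7%, and shows chromosome 11 highest at 52.9% and chromosome 14 lowest at 31.7%.

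The chromosomes differed in their makeup. Chromosome 11 was 52.9% A, and it was the 1 autosome with more A than B bins. Chromosomes 17 (48.4%) and 13 (47.9%) followed, and chromosomes 14 (31.7%), 12 (32.8%) and 3 (33.1%) had the smallest shares. The share of A followed the GC content of the chromosome (Pearson r = 0.654, Spearman rho = 0.651) and its gene density (r = 0.535, rho = 0.640) over 19 chromosomes, which share 1 matrix and 1 eigenvector. The gene densities of A and B were closest on chromosome 13, with 7.52 genes per Mb in A and 7.36 in B, whereas chromosome 15 had 15.4 and 3.12. By position, 31.6% of bins were A in the centromere-near part, 38.0% in the middle and 48.9% in the distal part of the chromosomes (3 parts of equal length; mouse autosomes have their centromere at the start).

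A bins formed shorter stretches than B bins, of which there were more. Apart from gaps, runs of the 2 kinds alternate, so their numbers are close and their mean length largely follows the bin counts. Whether B runs were longer beyond that was not tested. There were 304 uninterrupted runs of A, with a median of 2 Mb, and 315 of B, with a median of 3 Mb, and single bins made up 112 and 87 of them. Runs of at least 10 Mb numbered 7 in A and 41 in B. The longest A run was chr9:53000001-68000000, with 194 genes, among them *Thsd4*, *Scaper* and *Tln2*, the gene for the adhesion protein talin 2. The longest B run, chr14:80000001-118000000, spanned 38 Mb with 53 genes and 37.7% GC, and its longest genes were the glypicans *Gpc5* and *Gpc6* and the protocadherin *Pcdh9*. The longest genes of the next B runs were *Cadm2*, *Epha6* and *Robo2* in chr16:51000001-77000000 and *Cntnap5a*, *Cntnap5b* and *Pam* in chr1:96000001-121000000, while the A run at chr11:94000001-108000000 held 397 genes.

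Between chromosomes, bins of a kind met more often than bins of different kinds. The mean contact relative to the chromosome pair was 1.27 for A-A, 1.17 for B-B and 0.785 for A-B, which gives ratios to A-B of 1.62 and 1.49. Because the calls came from these contacts, they were made again from the odd-numbered chromosomes alone and read on contacts among the even ones, and the reverse. The A-A ratio was then 1.51 and 1.53 and the B-B ratio 1.43 and 1.41, lower than with calls from all contacts. The 2 sets of calls agreed in 89.1% of bins, and of the 263 bins that differed, 95.4% had an absolute eigenvector value under 0.5 (38.0% of all bins did).

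By pair of chromosomes, the calls from all contacts were read on the same contacts, so these counts are a description and support nothing. A-A and B-B both exceeded A-B in 171 of 171 pairs, and A-A exceeded B-B in 132. Calls from the odd or even chromosomes alone were not read by pair. The A-A ratio was largest between chromosomes 4 and 11 (2.39) and smallest between 4 and 14 (1.22). The B-B ratio was largest between chromosomes 7 and 12 (2.03) and smallest between 10 and 12 (1.16). Chromosomes 7 and 8 had the highest mean signal per bin pair of all pairs (1.60, with a median of 0.993), and their A-A, B-B and A-B values relative to that mean were 1.19, 1.27 and 0.722.

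The contact between 10 equal eigenvector classes was strongest in the extreme classes. The top A class met itself at 2.38 times the mean of the chromosome pair and the bottom B class met itself at 1.55, while these classes met each other at 0.502. In the middle, the fifth, sixth and seventh classes met themselves at 1.37, 1.51 and 1.34, above the fourth (1.10) and the eighth (1.04). With strong values capped, those middle values were 0.918, 0.912 and 0.909, and the top and bottom classes remained at 2.35 and 1.5. The strongest trans value of a bin had a median of 55.7 times the pair mean in the sixth class, 33.9 in the bottom B class and 14.4 in the top A class.

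**Figure D2:**
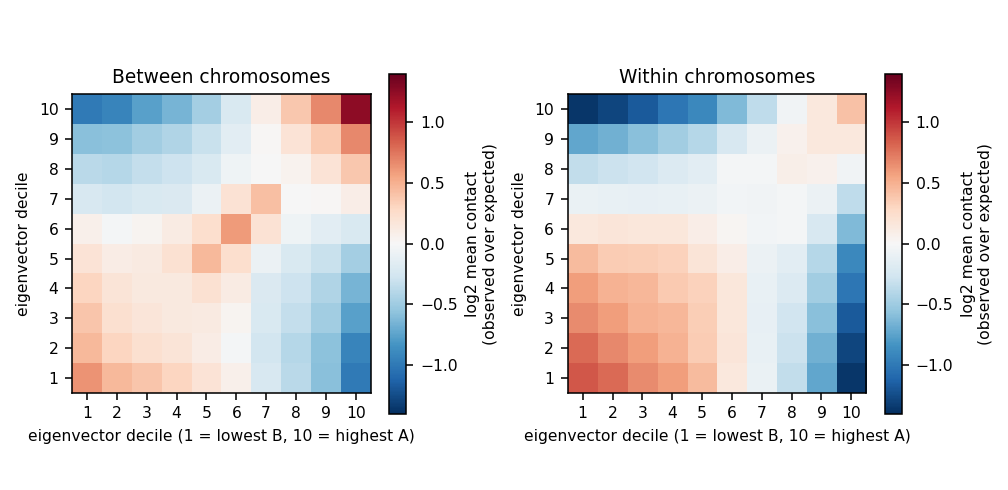
Mean contact (log2, observed over expected) between eigenvector deciles, between chromosomes (left, relative to the chromosome pair) and within chromosomes at 3 Mb and over (right, relative to the mean at that distance). Between chromosomes the strongest square is the top A decile with itself, at 2.38 on the linear scale. Within chromosomes it is the lowest B decile with itself, at 1.83.

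Contacts within chromosomes (in cis) were not used for the calls. They too were enriched within each compartment, but here B stood out. At 3 Mb and over, contact relative to the mean at the same distance on the same chromosome was 1.01 for A-A, 1.33 for B-B and 0.749 for A-B, so the ratios to A-B were 1.34 and 1.77. Over the 19 chromosomes the A-A ratio was 1.31 ± 0.134 (SD) and the B-B ratio 1.80 ± 0.173. A-A exceeded A-B, and B-B exceeded A-A, in 19 of 19 chromosomes. The contrast was largest on chromosome 11 for B-B (2.31 times A-B) and on chromosome 2 for A-A (1.62 times), and smallest for A-A on chromosome 13 (1.08 times).

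The A-A enrichment grew with distance. It was 1.06 times A-B at 3 to 5 Mb, 1.16 at 5 to 10 Mb, 1.25 at 20 to 40 Mb and 1.66 beyond 80 Mb, where A-A (1.27) was slightly above B-B (1.2). The B-B ratio rose from 1.63 at 3 to 5 Mb to 1.96 at 40 to 80 Mb and was 1.58 beyond 80 Mb. At each distance under 80 Mb, B-B was above A-A in all 19 chromosomes. Beyond it, B-B was above A-A in 9 of the 15 chromosomes with at least 20 bin pairs of each kind.

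**Figure D3:**
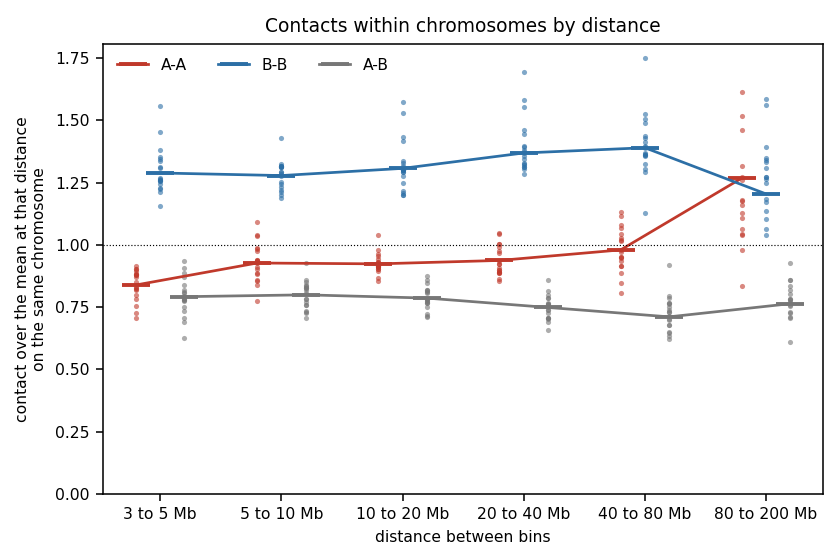
Contact within chromosomes relative to the mean at the same distance, by distance band. Lines join the values over all chromosomes, and points are single chromosomes with at least 20 bin pairs in the band. The B-B values lie above the A-A values in every band up to 80 Mb.

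The order of A-A and B-B in cis depended on how bins were weighted. The authors' correction gave every 40 kb bin the same total, and within it the 2 kinds of bins spent their signal differently. In A bins 58.3 ± 5.39% (SD over bins) of the signal came from within 1 Mb, against 47.1 ± 6.52% in B bins, higher in A in 19 of 19 chromosomes. B bins had more at 1 to 5 Mb (13% against 9.25%), at 5 to 20 Mb (10.6% against 8.05%) and at 20 Mb and over (13.9% against 9.94%), in each case on all 19 chromosomes. Trans signal took 14.5 ± 3.24% in A and 15.4 ± 5.0% in B (SD over bins), with A higher on chromosomes 15 and 18 and B on the other 17. The difference, A minus B, was -0.92 percentage points over all bins (SD 0.88 over the differences of 19 chromosomes) and was -0.21 (SD 0.79) with calls from cis contacts. When the cis values at 3 Mb and over were balanced so that each bin had the same mean, a setting added after the data were seen, A-A became 1.33, B-B 1.14 and A-B 0.790. Under it A-A was above B-B in 18 of 19 chromosomes, and both remained above A-B in all 19. The statement that like met like in cis therefore held under both weightings, whereas which compartment did so more strongly did not.

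A compartment axis drawn from cis contacts alone ran along the trans axis. The first eigenvector of the cis matrix of each chromosome correlated with the trans eigenvector at an absolute r of 0.813 (chromosome 13) to 0.939 (chromosome 19) over the bins of a chromosome, which share a matrix and its correction. Called by its sign, 86.3% of bins had the same compartment, from 78.6% on chromosome 13 to 92.7% on chromosome 1, and the share in A was 31.1%.

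The X chromosome, which the rule left out, was mainly turned to B. The mean contact of its 164 bins was 0.805 with autosomal A bins and 1.13 with B bins, relative to the mean of each chromosome pair. More contact with A than with B was measured in 25 X bins and the reverse in 139. The 25 bins had 41.6 ± 2.04% GC and 11 ± 8.82 genes (SD), and the 139 had 38.8 ± 1.67% and 4.72 ± 5.64. The log2 ratio of A to B contact was highest, at 0.79, in chrX:11000001-12000000 and lowest, at -1.91, in chrX:119000001-120000000. The bin of *Firre*, chrX:47000001-48000000, had 0.751 with A and 1.2 with B, a log2 ratio of -0.67 that ranked 107 of 164.

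The reference sequence, which the rule did not use, differed between the compartments. GC content was 44.7 ± 2.86% (SD over bins) in A and 40.1 ± 2.62% in B, and CpG density was 10.9 ± 2.43 against 6.93 ± 1.98 per kb. HindIII sites were fewer in A, at 303 ± 36.5 per Mb against 334 ± 26.1 in B. GC content and gene density were higher in A on 19 of 19 chromosomes. Over the 2410 bins, which are neighbours on chromosomes and not independent, the eigenvector had a Pearson r of 0.740 with CpG density, 0.717 with GC, 0.499 with gene number and -0.535 with HindIII sites. HindIII sites and base composition thus moved together with the eigenvector, and their part in the calls was not tested.

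Genes were concentrated in A. Of the 21398 protein-coding genes that start in a called autosomal bin, 13134 were in A, that is 61.4% of genes in 39.7% of bins, at 13.8 genes per Mb in A and 5.73 in B. A bin had 13.7 ± 11 genes in A and 5.69 ± 7.80 in B. Only 4 A bins (0.418%) held no gene, among B bins 253 (17.4%). The median gene length was 16.9 kb in A and 12.9 kb in B, whereas of the 187 genes over 500 kb 138 were in B. Promoters in A held a median of 11 CG in 250 bases and those in B 4. No CG at all was present in 3.05% of A and 14.4% of B promoters.

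**Figure D4:**
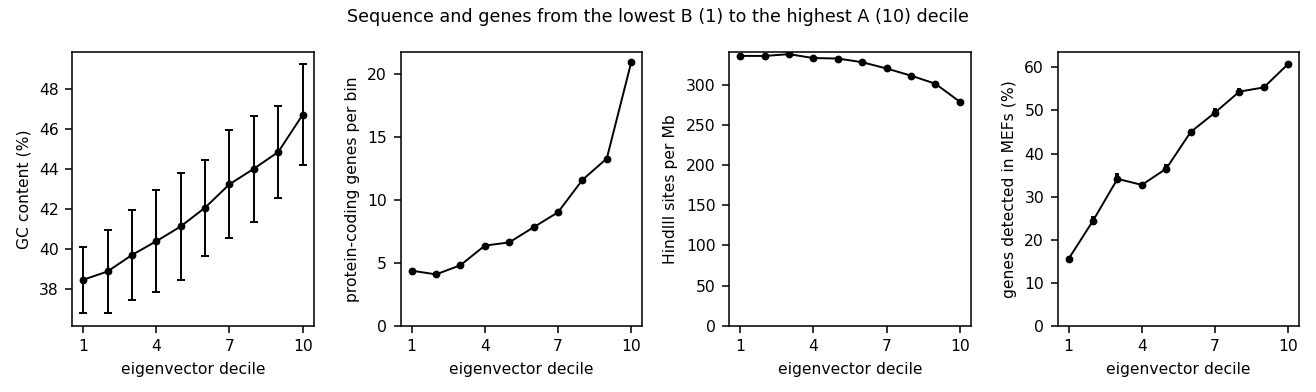
From the lowest B decile (1) to the highest A decile (10) of the eigenvector, mean GC content with its SD over bins, mean number of protein-coding genes per bin, HindIII sites per Mb, and the percentage of genes detected in MEF libraries (median of 12 libraries, with bars from the lowest to the highest). GC rises from 38.4% to 46.7%, genes from 4.37 to 20.9 per bin and detection from 15.6% to 60.8%, while HindIII sites fall from 336 to 279 per Mb.

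Muscle genes lay mainly in A. Of 43 genes of the skeletal muscle list, 34 (79.1%) started in A bins, beside 61.4% of all genes. *Myod1* (chr7:53631844-53634462), the master regulator of the myogenic lineage to which C2C12 belongs, was in an A bin with a value of 1.71, and *Myog* (chr1:136186581-136189124), the regulator of terminal differentiation, in one of 0.24. Their relatives *Myf5* and *Myf6*, which lie side by side on chromosome 10, shared a B bin (-0.52). The highest value belonged to *Mylpf* (2.78), a fast myosin light chain gene, and the lowest to *Mstn* (-0.89), the gene for the growth inhibitor myostatin. The myosin heavy chain cluster on chromosome 11 lay across the edge of neighbouring bins with different calls. *Myh3* (embryonic) and *Myh2* started in a B bin (-0.76), and *Myh1*, *Myh4* and *Myh8* in the next bin, which was A (0.33). *Myh2* (chr11:66984529-67011019) runs across that edge, so no border was placed within the cluster. The A value lies under 0.5, as did 95.4% of the bins that the odd and even chromosomes called differently (38.0% of all bins did). Of the 43 genes, 35 (81.4%) were in A with trans values capped, where all genes stood at 65.9%. With calls from cis contacts 26 (60.5%) were in A, where all genes stood at 51.2%.

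Synaptic adhesion and channel genes lay mainly in B. Of the 42 genes of that list, 5 were in A (11.9%, beside 61.4% of all genes), namely *Grin2b*, *Nrxn3*, *Grm8*, *Dlg2* and *Odz3*. *Odz3*, a teneurin gene, had the highest value (0.86), and *Gabrg1* (chr5:71142286-71233856), a GABA-A receptor subunit gene, the lowest (-1.23). The list also holds *Sgcz*, a sarcoglycan gene (-0.96), and *Galntl6*, a glycosyltransferase gene (-0.84), which belong to neither class and were in B. The giant genes *Csmd1* (-1.18), *Lrp1b* (-0.86) and *Cntnap2* (-0.72) were in B. In the 12 MEF libraries, 7 of the 42 genes (16.7%) were detected (at 1 CPM per kb of merged exon or more) in all, beside 45.2% of all genes, among them *Pcdh9*, a B gene with a median level of 15.3.

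Chemosensory receptors, which form large clusters and are used in sensory neurons, were mostly in B. In A lay 120 of 1081 olfactory receptor genes (11.1%) and 18 of 318 vomeronasal receptor genes (5.66%), beside 61.4% of all genes. With trans values capped the counts in A were 152 and 32, where all genes stood at 65.9%, and with calls from cis contacts 59 and 28, where all genes stood at 51.2%. The receptor genes occupied 80 and 50 bins, so they are not independent. Of these bins, 23 of the 80 and 5 of the 50 were A, beside 39.7% of all bins, so the contrast of the olfactory receptors was smaller by bins than by genes. The olfactory receptor bin with the lowest value was that of *Olfr1278* on chromosome 2 (-1.34), and the highest that of *Olfr287* on chromosome 15 (2.36). The 24 clustered protocadherin genes, which give neurons their surface identity, all shared 1 B bin (-0.88).

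Genes for functions that every cell needs were compared with the 61.4% of all genes in A and with the 73.4% in A of the genes detected in all 12 MEF libraries (at 1 CPM per kb of merged exon or more). Among cytosolic ribosomal protein genes 61 of 79 (77.2%) were in A, with *Rpl3* (3.42) in the highest A bin of all. Oxidative phosphorylation genes were in A in 65 of 90 cases (72.2%) and glycolysis genes in 13 of 17 (76.5%). *Eno1* (enolase) had 2.92, while *Ldha* (lactate dehydrogenase A) was in a B bin (-0.63), although its MEF level was 348 to 408. DNA replication genes were in A in 28 of 42 cases (66.7%), which lies between both shares, with *Rpa2*, of the single-strand binding complex, at 2.86 and the ligase gene *Lig1* at -0.84. Chromosome architecture genes were in A in 19 of 30 cases (63.3%), close to the share of all genes and below that of detected genes, and ranged from *Sun2* (3.42), for an inner nuclear membrane protein, and *Ctcf* (2.79) to the condensin II gene *Ncapd3* (-0.95). *Rad21*, the cohesin subunit gene, was in B (-0.59).

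Fibroblast matrix genes were in A in 21 of 29 cases (72.4%) and collagens in 27 of 41 (65.9%, near the 61.4% of all genes), with *Pdgfrb* (2.76) and *Col5a1* (2.81) at the top and *Vcan* (-0.77) and *Col10a1* (-0.84) at the bottom. Of the 29 matrix genes, 28 were detected in all 12 MEF libraries, and the share of all such detected genes in A was 73.4%, near that of the list. *Zfp* zinc finger genes (183 of 333, 55.0%), beta-defensins (20 of 41, 48.8%), cytochrome P450 genes (44 of 91, 48.4%) and cadherins (10 of 23, 43.5%) were below the 61.4% of all genes. Counted by bins, cytochrome P450 genes lay in 25 A and 13 B bins, *Zfp* genes in 100 and 78, beta-defensins in 3 and 4 and cadherins in 9 and 13. Of all bins, 39.7% were A. With calls from cis contacts the cytochrome P450 count in A was 31 (34.1%), where all genes stood at 51.2%. The lowest members of the *Zfp*, beta-defensin, cytochrome P450 and cadherin lists were *Zfp202* (-1.28), *Defb18* (-1.18), *Cyp2c38* (-1.29) and *Cdh10* (-1.38). The highest were *Zfp251* (3.24), *Defb48* (2.2), *Cyp17a1* (3.02), a steroid hormone synthesis gene, and *Cdh23* (2.58), an inner ear cadherin gene.

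The call also depended on the setting for the *Hox*, keratin and clustered histone genes. All 39 *Hox* genes, the regulators of body position, were in A in 4 bins (from 0.14 for *Hoxd8* to 3.02 for *Hoxc9*), beside 61.4% of all genes. With calls from cis contacts 30 of them (76.9%) remained so, where all genes stood at 51.2%. All 46 keratin genes, for filament proteins of epithelia, were in A in 3 bins, but only 6 with calls from cis contacts. Of 67 clustered histone genes 15 (22.4%) were in A in the main calls, and 44 (65.7%) with trans values capped, where all genes stood at 65.9%. Of all 19 lists, 10 were above and 9 below the share of all genes. That side was kept by 19 lists with capped values and by 18 with cis calls, keratins being the exception.

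**Figure D5:**
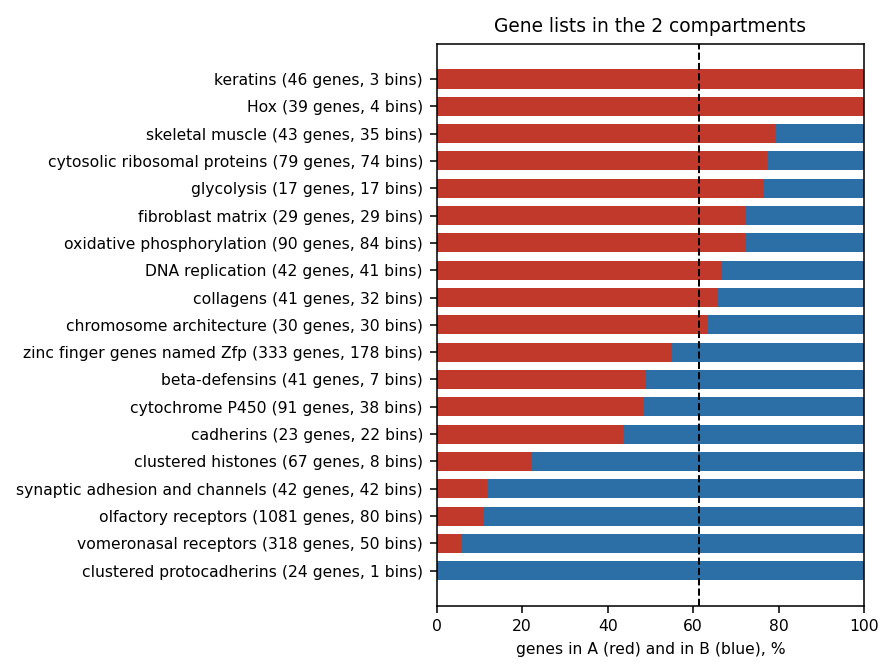
For each gene list, the percentage of its genes in A bins (red) and in B bins (blue), with the numbers of genes and of bins in brackets. The dashed line marks the 61.4% of all protein-coding genes in A. Clustered families fill few bins, such as 1 for the clustered protocadherins and 3 for keratins.

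Genes in C2C12 A bins were more often detected in MEFs, which are another cell type. The level used was expected counts in CPM (scaled to the library total) per kb of merged exon, and a gene counted as detected at 1 or more. Of the A genes, 56.0% to 57.0% were detected in a library, and of the B genes 33.1% to 34.1%. The difference was 22.7 ± 0.150 percentage points (SD, n = 3) in female WT, 22.9 ± 0.0328 in female KO, 23.2 ± 0.210 in male WT and 23.1 ± 0.244 in male KO MEFs. The libraries share the same genes and calls, so this SD covers repeat measurement alone, and the spread over chromosomes is wider. A genes made up 73.4% of the 9678 autosomal genes detected in all 12 libraries. Per library, 75.3% to 76.3% of the counts of all 21398 autosomal genes in called bins came from A genes. The share detected in all 12 was higher in A on 19 of 19 chromosomes, by 6.53 percentage points on chromosome 15 to 28.9 on chromosome 14.

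The compartments differed more in which genes were detected than in the level of those that were. Genes detected in all libraries had a median level of 9.33 to 9.61 in A and 7.85 to 8.62 in B. Over all genes the difference of the log2 medians (pseudocount 0.1) was 3.8 to 3.98 in the 6 female and 4.12 to 4.17 in the 6 male libraries, with B medians of 0.0280 to 0.0637, below the pseudocount. The size of this difference depended on the scale, and the mean of 4.03 over the 12 libraries became 1.60 with a pseudocount of 1 and 0.36 over genes detected in at least 1 library. The sex difference was not tested, and the female libraries were shallower (42986515 to 51481033 expected counts, against 51521906 to 65454659). Without olfactory and vomeronasal receptors, 39.1% to 40.4% of B genes and 56.6% to 57.6% of A genes were detected. Among promoters with 10 or more CG, 75.6% to 76.6% of A and 68.2% to 69.8% of B genes were detected, and among the other promoters 30.5% to 31.5% and 15.2% to 16.1%.

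Some of the most abundant MEF transcripts came from B bins. *Acta2* (chr19:34315580-34329826), for smooth muscle actin, had a level of 3608 to 5043 and lay in a bin of -0.28. *S100a6* (2597 to 3050, bin -0.39), *S100a11* (1288 to 1932, bin -0.47), both calcium-binding protein genes, and *Anxa1* (761 to 1175, bin -1.01), for annexin A1, were further examples. In A the most abundant was *Eef1a1*, for the elongation factor, at 3423 to 3894 in a bin of 0.75. These 5 genes were chosen after their values were seen. Levels of genes with many near-identical copies, such as *Eef1a1* and the ribosomal protein genes, are uncertain, since reads can be split among copies.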

How the data were processed

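Hi-C was analysed from C2C12 cells and RNA-seq from MEFs of mouse. Per the study's methods and the submitters' processing notes, the authors processed the 2 Hi-C replicates as a pool with HiC-Pro 2.7.8 on mm9. The deposited contact signal per pair of 40 kb bins was corrected iteratively, so that bin totals are equal. For RNA-seq they mapped with Bowtie 2 and deposited RSEM 1.2.29 expected counts per gene, unscaled (42986515 to 65454659 per library). All other samples were not analysed here, and a few items are not reported here.

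The signal was summed to 1 Mb bins. Cis blocks were set to 1 in the correlation. Cis contacts were divided by the mean at the same distance on the same chromosome. GC content, HindIII sites and genes (assigned to the bin of their start) came from the mm9 reference sequence and its annotation. Levels were expected counts in CPM per kb of merged exon, per library, and nothing was rounded. NumPy 2.4.6, pandas 2.3.3, SciPy 1.17.1 and matplotlib 3.10.9 were used, and the code was checked on simulated contact maps with known compartments. The correction of the authors equalises bin totals, so a bin with more near signal has less far signal.

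No statistical test was run on the data. The contacts come from 1 pooled matrix, and the MEF groups were described and not tested against each other. Whether the MEF libraries of a group came from separate embryos was not stated per library. The members and all gene lists were chosen with earlier results of these data known. The genes named were, for each list, the members in the bins with the highest and lowest value and, for lists given by name, members with a textbook role. For the 5 highest and lowest bins and the longest runs, they were taken from the 3 longest genes. Names given for other runs, for bins at the threshold and for MEF levels were chosen after their values were seen. The alternatives were other bin sizes, bin filters, expected values, caps and calls, other MEF thresholds, and each MEF library left out in turn. The settings with balanced cis values and with calls from cis contacts, and the gene list and MEF values under capped or cis calls, were added after the data were seen.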

Additional observations from a re-analysis of the deposited data

How the results depend on the processing

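No ratio or difference changed direction under the alternatives run, but the order of the cis A-A and B-B ratios turned with balanced cis values, and keratins (100% in A) fell below all genes with cis calls (13% against 51.2%). A value counted as moved when it left 1 SD over the 19 chromosomes (for MEF values, over the 12 libraries) or, for the share in A (39.7%) and the gene lists, the 95% Wilson interval over bins (37.8% to 41.7%) or genes. That interval treats bins or genes as independent, which they are not, so it serves as a yardstick and does not measure their spread. Capping trans values gave 43.8% of bins in A, and calls from cis contacts 31.1%. Without the 20% of bins with the smallest absolute eigenvector values, the trans ratios to A-B were 1.94 (A-A) and 1.70 (B-B) and the cis ratios 1.59 and 2.17. With calls from cis contacts, the trans ratios were 1.75 and 1.31 and the cis A-A ratio 1.59. With balanced cis values the cis ratios were 1.68 and 1.44. The difference between A and B in genes detected in MEFs (23.0 percentage points) was 24.2 at a threshold of 0.1, 24.9 with capped and 21.4 with cis calls. The log2 difference of the medians (4.03) was 1.60 with a pseudocount of 1, 0.36 over genes detected in at least 1 library and 3.86 with cis calls. Leaving out each MEF library gave 22.9 to 23.0 percentage points and 4.02 to 4.05. Of 143 values under alternatives, 115 did not move by this measure, among them the trans share (A minus B), which was -0.92 percentage points and -0.21 with cis calls. The 115 include the values with 1 MEF library left out. These could not move, because leaving out 1 of 12 libraries shifts their mean by less than 1 SD. No paired analysis was possible because no groups of samples were compared, so replicate numbers pair nothing. The depth of the contact matrix was not assessed and the replicate error of its values is unknown. MEF levels stand for another cell type, and pairs of bins with no signal limit what single trans values show.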
